A study of Homo sapiens with 12 samples.

Results

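The genes described here are 60 that cells use to enter, run and leave mitosis: cyclins and mitotic kinases, spindle checkpoint genes, activators and inhibitors of the anaphase-promoting complex (APC/C), the chromosomal passenger complex, centromere and kinetochore genes, condensin, cohesion and chromosome structure genes, spindle and cytokinesis genes, and 2 transcription factors of mitotic genes. They come from a list of gene symbols that uses no measured value in its rule, drawn up with earlier results of these data known. All 60 were found among the 43236 symbols of the count files, and all 60 were among the 15979 genes with enough reads to be tested. MNNG/HOS cells (HOS-MNNG in the labels), a line of the human osteosarcoma line HOS transformed with the mutagen MNNG, received DMSO, the solvent, or 300 nM NXP800, a small molecule developed as an inhibitor of the HSF1 heat shock pathway. RNA-seq of polyA RNA was made after 6 h and after 24 h with 3 libraries for each of the 4 groups, and NXP800 was compared with the DMSO libraries of the same time point. All 12 libraries come from 1 cell line.

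Mitosis starts when cyclin B1 with the kinase CDK1 becomes active, and it ends when the APC/C marks cyclin B1 and securin for destruction. Between these steps the kinetochores bind the centromeres to the spindle, and the checkpoint holds the APC/C back until every chromosome is attached. Transcripts of these proteins are kept low in G1 cells by the DREAM complex and rise in G2 through B-MYB, the MuvB core and FOXM1, which act at promoters that carry a cell cycle genes homology region (CHR) and often CCAAT boxes bound by NF-Y.

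The libraries held between 30810614 and 31947656 gene counts. Reads on no annotated gene made up 6.66 to 8.14% of the 6 h libraries and 2.73 to 3.67% of the 24 h libraries, and the library names in the labels also follow 2 patterns, so that effects of time and of library set cannot be told apart. Of 12 osteoblast and mesenchymal markers 6 were tested, with *VIM* at 3338 CPM (counts scaled to the library total) or more and *RUNX2*, *COL1A1*, *SPARC* and *SPP1* among those present, whereas the osteoblast markers *SP7*, *BGLAP*, *IBSP*, *ALPL* and *BMP2* and the collagen gene *COL1A2* had at most 15 counts in any library. Of 14 markers of other cell types, *PTPRC*, *CD3E*, *CDH5*, *KRT19*, *MYOG*, *DES*, *GFAP* and *ALB* had at most 7 counts in any library, and the summed level of all 14 was 1236 to 1582 CPM at 6 h and 1203 to 1875 CPM at 24 h, carried by *KRT8* and *KRT18*. At 24 h this sum was 1803 to 1875 CPM with DMSO and 1203 to 1513 CPM with NXP800. Of the 5 markers tested at 24 h 2 fell and 2 rose, each at an edgeR adjusted p of 0.000423 or less. Over all genes tested 28.6% fell and 27.5% rose at 24 h (adjusted p below 0.05). The keratins *KRT8* and *KRT18* fell (log2 -0.65 and -0.43), whereas *CD68*, a macrophage marker, rose from 76.3 ± 13.1 to 142 ± 19.5 CPM (SD, n = 3, log2 0.90), and the epithelial *EPCAM* rose from 5.78 ± 0.092 to 10.1 ± 0.060 CPM (SD, n = 3, log2 0.81). The part of these markers in the results was not tested.

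To show what these promoters look like, the RefSeq windows of GRCh38.p14 from 250 bases before to 50 bases after the annotated start were read for the members. A window was found for 50 of the 60, and *AURKA*, *BIRC5*, *BUB3*, *CENPH*, *CENPM*, *FOXM1*, *KNL1*, *TPX2*, *TTK* and *UBE2C* had no entry. The window of *CENPI* (chrX:101100808-101101107) lies inside the gene, which starts at 101098204 on the plus strand. Those of *AURKB*, *SGO1* and *SMC2* also lie inside their genes, so these windows do not describe the outermost start. The first 3 windows below belong to the members with the largest falls at 24 h that hold a CHR, and the last, without one, to the member with the smallest change at 24 h among those with a window. Capitals mark a CHR, searched as TTTGAA or TTCGAA, and a CCAAT box, searched as CCAAT, on both strands (TTCAAA and ATTGG on the other). *MKI67*, the gene of the proliferation marker Ki-67, lies on the minus strand (chr10:128126374-128126673), *ESPL1*, the gene of separase, on the plus strand (chr12:53268049-53268348), *TOP2A*, the gene of DNA topoisomerase II alpha, on the minus strand (chr17:40417847-40418146) and *CENPK*, a kinetochore gene, on the minus strand (chr5:65563119-65563418).
MKI67: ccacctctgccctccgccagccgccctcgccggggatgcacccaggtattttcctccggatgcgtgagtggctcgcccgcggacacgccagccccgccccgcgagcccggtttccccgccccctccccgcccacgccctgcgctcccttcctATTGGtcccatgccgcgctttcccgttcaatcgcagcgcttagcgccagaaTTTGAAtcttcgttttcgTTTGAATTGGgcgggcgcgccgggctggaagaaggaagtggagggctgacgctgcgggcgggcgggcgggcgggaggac
ESPL1: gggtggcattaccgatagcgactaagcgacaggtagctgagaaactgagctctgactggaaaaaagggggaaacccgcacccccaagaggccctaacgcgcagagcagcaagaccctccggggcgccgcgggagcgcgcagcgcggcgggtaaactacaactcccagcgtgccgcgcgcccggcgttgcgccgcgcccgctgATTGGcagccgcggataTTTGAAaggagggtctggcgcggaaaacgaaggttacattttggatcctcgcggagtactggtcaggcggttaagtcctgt
TOP2A: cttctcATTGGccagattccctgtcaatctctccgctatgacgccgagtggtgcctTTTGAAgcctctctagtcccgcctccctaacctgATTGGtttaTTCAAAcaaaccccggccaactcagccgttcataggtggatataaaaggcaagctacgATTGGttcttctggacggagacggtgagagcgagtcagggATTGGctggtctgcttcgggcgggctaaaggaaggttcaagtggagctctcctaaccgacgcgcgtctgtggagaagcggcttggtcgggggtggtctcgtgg
CENPK: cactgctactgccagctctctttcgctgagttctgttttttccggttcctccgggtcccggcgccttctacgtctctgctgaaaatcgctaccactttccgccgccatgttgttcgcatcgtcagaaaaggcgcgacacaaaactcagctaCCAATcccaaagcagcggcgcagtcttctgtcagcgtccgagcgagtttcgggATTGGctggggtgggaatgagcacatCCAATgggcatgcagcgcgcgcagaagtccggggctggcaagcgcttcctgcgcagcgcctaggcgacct

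In *MKI67* the CHR that starts at -29, counted from the annotated start, overlaps the inverted CCAAT box at -24, and a further CHR starts at -47. *ESPL1* holds a CHR at -31 and an inverted CCAAT box at -48, and *TOP2A* holds 4 inverted CCAAT boxes and 2 CHR matches. *CENPK* holds 3 CCAAT boxes and no CHR in this window. Over all members with a window, 35 of 50 (70%) held a CHR, against 16.6% of 27305 RefSeq windows and 11.1% of the 12235 windows of genes tested. A CCAAT box was in 35 (70%), against 35.7% of all windows, and both motifs were in 26 (52%), against 6.58%. Of the 47 CHR matches, 31 started between -50 and 40, a range chosen after the positions were seen, and 54% of the members' windows held one there against 4.88% of all windows. In the same way 54% held a CCAAT box that started between -120 and -40, against 17.8%. A match is a run of letters and was not tested for binding.

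**Figure D1:**
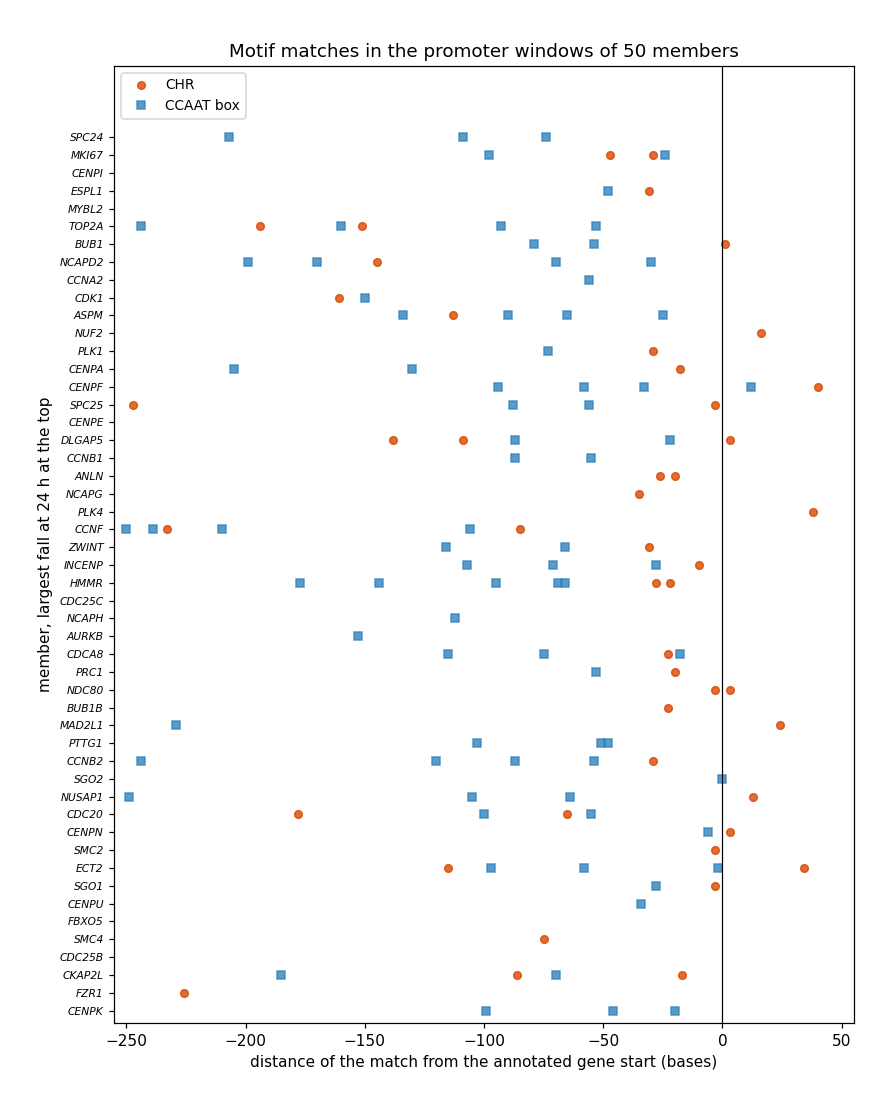
Start of each CHR match (orange circles) and CCAAT box (blue squares) in bases from the annotated gene start (vertical line) in the 50 members with a promoter window, ordered by the log2 fold change at 24 h with the largest fall at the top. Of the 47 CHR matches 31 lie between -50 and 40, and 6 members, among them *CENPI* and *MYBL2*, hold neither motif in their windows. The window of *CENPI* lies inside the gene.

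With NXP800 most of these transcripts changed by a small amount at 6 h, though many passed the test, and every transcript was lower at 24 h. At 6 h 27 of the 60 members fell and 8 rose at an adjusted p below 0.05 (quasi-likelihood test of edgeR, Benjamini-Hochberg adjusted over the genes tested), where 27.8% of all genes tested fell and 25% rose. This fit, used throughout unless stated, leaves out the pairing of DMSO and NXP800 libraries by replicate number. With that number as a block 6 further members passed at 6 h and no call was lost. The median log2 fold change of the members at 6 h was -0.15, beside -0.046 over all genes tested, and 1 member fell over 2-fold, a size that 5.23% of the genes reached. At 24 h all 60 fell and none rose, where 28.6% of all genes fell and 27.5% rose, and 42 fell over 2-fold, as 7.32% of the genes did. The median log2 fold change was then -1.12, beside -0.0033 over all genes, which leaves 45.9% of the DMSO level. In a bulk sample fewer cells in G2 or mitosis and less RNA of these genes per cell cannot be told apart.

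The members' summed level shows the same picture in every library. It was 8193, 7784 and 7942 CPM in the DMSO libraries of 6 h (replicates 1 to 3) and 7299, 6807 and 7308 CPM with NXP800. At 24 h it was 8807, 8732 and 8544 CPM with DMSO and 4206, 3757 and 3857 CPM with NXP800. The NXP800 libraries lay below the DMSO libraries at both times, at 89.5% of the DMSO mean at 6 h and at 45.3% at 24 h. Gene by gene, the 3 NXP800 libraries lay below the 3 DMSO libraries for 31 members and above them for 8 at 6 h. At 24 h they lay below for 59, *CENPK* being the exception. How many of all genes tested separate in this way was not computed, so these counts cannot be set against a background. Of the 60 members, 27 fell at both times, 25 passed the test at 24 h alone, and 8 rose at 6 h and fell at 24 h.

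**Figure D2:**
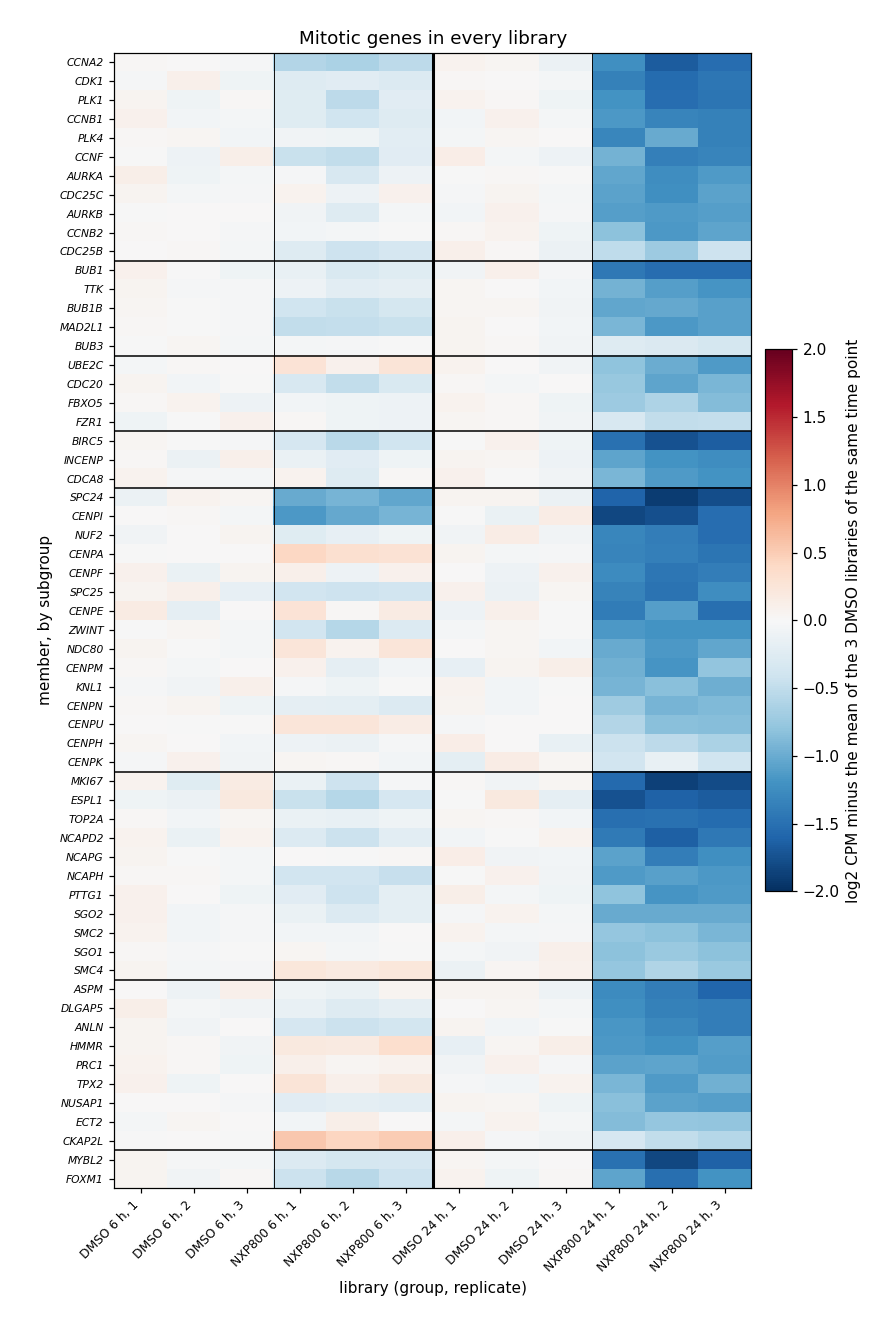
log2 CPM of the 60 members (rows, by subgroup between black lines) in the 12 libraries (columns), minus the mean of the 3 DMSO libraries of the same time point. The NXP800 24 h columns are blue in every row, and the NXP800 6 h columns hold pale blue rows (27 members fell), near white rows and 8 red rows that rose.

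The response itself differed between the times for 58 of the 60 members, each more negative at 24 h, and for none was it more positive (edgeR's test of the difference of the 2 responses, adjusted p below 0.05), where 13.8% of all genes had a more negative and 12% a more positive response. The exceptions were *CDC25B*, the phosphatase that activates CDK1 at the centrosome, with a difference of -0.21 on the log2 scale (edgeR adjusted p = 0.171), and *CENPK* with -0.31 (edgeR adjusted p = 0.078). With the replicate number as a block *CENPK* passed as well (-0.31, edgeR adjusted p = 0.00606). Each replicate number is shared by a DMSO and an NXP800 library that deviate together, and the block also moved 6 calls at 6 h over the threshold. These were *MKI67* (-0.19, edgeR adjusted p = 0.00461), *AURKA* (-0.15, adjusted p = 0.0168), *INCENP* (-0.15, adjusted p = 0.015), *NUF2* (-0.16, adjusted p = 0.0228), *TOP2A* (-0.12, adjusted p = 0.0244) and, upward, *CENPE* (0.16, adjusted p = 0.0208).

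The DMSO libraries of the 2 times also differed, with 17 members (28.3%) lower at 24 h than at 6 h and 20 (33.3%) higher (edgeR, adjusted p below 0.05), where 20.6% of all genes were lower and 21% higher. Scaled by library size alone the split was 29 lower and 14 higher. Without replicate 1 of DMSO 6 h or without replicate 3 of DMSO 24 h 9 members were lower. Shares over all genes were not computed for these alternative fits. This comparison shares its DMSO libraries with the comparisons of NXP800. The largest such difference was in *CENPK*, whose DMSO level was 54.7, 59.2 and 52.8 CPM at 6 h and 23.6, 29.7 and 27.7 CPM at 24 h (log2 -1.04, edgeR adjusted p = 5.04e-07).

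**Figure D3:**
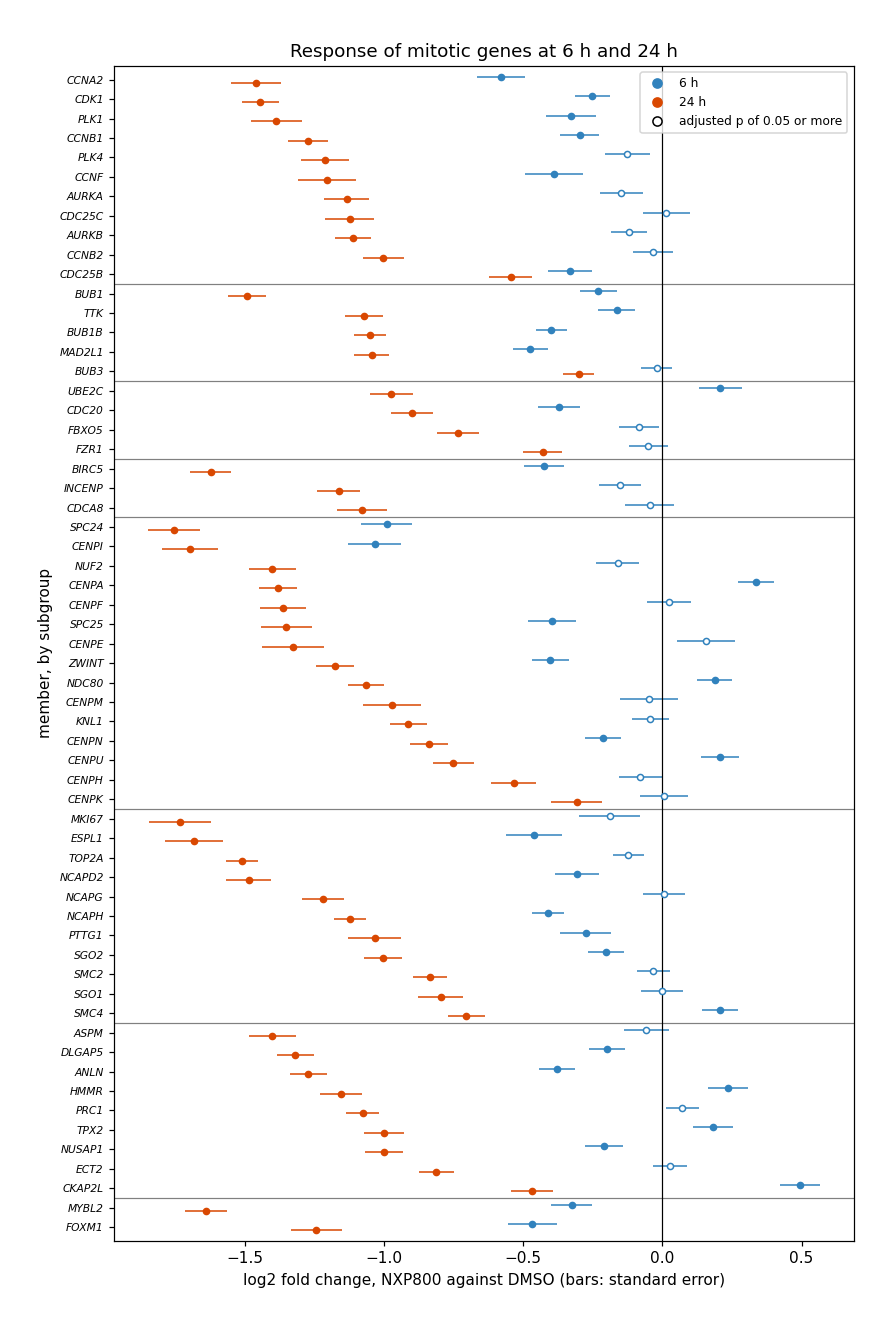
log2 fold change of NXP800 against DMSO for each member at 6 h (blue) and 24 h (orange), by subgroup between grey lines, with standard errors as bars and open circles where the adjusted p was 0.05 or more. Orange points lie between -1.75 and -0.30, and blue points between -1.03 and 0.49.

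Every cyclin and kinase of the list fell at 24 h. Of 11 members 6 fell and none rose at 6 h (median log2 fold change -0.25), and all 11 fell at 24 h (median -1.21), 10 of them over 2-fold. Beside these and the subgroup counts below stand the shares over all genes tested, 27.8% lower and 25% higher at 6 h. At 24 h 28.6% were lower and 27.5% higher. *CCNB1*, which encodes cyclin B1 (chr5:69167150-69178245), was at 265, 240.1 and 243 CPM in the DMSO libraries of 6 h and at 212, 189 and 208 CPM with NXP800. The 24 h libraries had 254, 279 and 255 CPM with DMSO and 118, 105 and 102 CPM with NXP800. The groups did not overlap at either time, and the log2 fold change was -0.30 ± 0.071 (SE) at 6 h (edgeR adjusted p = 0.00218) and -1.27 ± 0.072 at 24 h (edgeR adjusted p = 7.64e-10). *CDK1*, the kinase partner (chr10:60778331-60794852), was at 204, 222 and 194 CPM with DMSO and at 173, 176 and 171 CPM with NXP800 at 6 h. With DMSO at 24 h the level was 149, 148 and 142 CPM, and with NXP800 it was 57.3, 50.4 and 53.7 CPM. It fell by 0.25 on the log2 scale at 6 h (edgeR adjusted p = 0.00311) and by 1.44 at 24 h (edgeR adjusted p = 9.13e-11), with no overlap at either time.

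*CCNA2*, the gene of cyclin A2, which acts in S phase and at the entry into mitosis, had the largest fall of its subgroup at both times. It was at 167, 164 and 161 CPM with DMSO and at 109, 106 and 114 CPM with NXP800 at 6 h. At 24 h the levels were 162, 158 and 141 CPM with DMSO and 65.8, 48.6 and 53.3 CPM with NXP800. The NXP800 libraries lay well apart below DMSO at both times, with log2 fold changes of -0.58 ± 0.087 (edgeR adjusted p = 3.75e-05) and -1.46 ± 0.090 (edgeR adjusted p = 1.68e-09). *PLK1*, a kinase of centrosome maturation and mitotic exit, fell by 0.33 at 6 h and by 1.39 at 24 h on the log2 scale, *CCNF* (cyclin F) by 0.39 and 1.21, and *CDC25B* by 0.33 and 0.55. *CDC25C*, the other CDK1 phosphatase of the list, *CCNB2* (cyclin B2), *PLK4*, the kinase of centriole duplication, *AURKA*, the spindle pole kinase, and *AURKB*, the kinase of the passenger complex, had log2 fold changes between -0.15 and 0.01 at 6 h that did not pass, and fell by 1.00 to 1.21 at 24 h.

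Of the 5 spindle checkpoint genes 4 fell at 6 h (median -0.23) and 5 at 24 h (median -1.05). *BUB1*, a checkpoint kinase at the kinetochore, was at 104, 97.01 and 92.4 CPM with DMSO and 88.4, 79.4 and 82.4 CPM with NXP800 at 6 h. At 24 h it was at 101, 113 and 104 CPM with DMSO and 39.4, 36.8 and 37.01 CPM with NXP800. The fall was small at 6 h (log2 -0.23, edgeR adjusted p = 0.00807, and 0.0513 without replicate 1 of DMSO 6 h) and the largest of the subgroup at 24 h (log2 -1.49 ± 0.069, edgeR adjusted p = 1.03e-10). *MAD2L1*, whose product MAD2 holds CDC20 inactive, had the largest fall of the subgroup at 6 h, from 136, 134 and 132 CPM with DMSO to 94.9, 95.8 and 98.2 CPM with NXP800 at 6 h. After 24 h DMSO libraries stood at 121, 118 and 113 CPM and NXP800 libraries at 62.5, 53.1 and 55.04 CPM. Its log2 fold change was -0.48 ± 0.062 at 6 h (edgeR adjusted p = 9.58e-06) and -1.04 ± 0.064 at 24 h (edgeR adjusted p = 1.6e-09).

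*TTK*, the kinase MPS1 that starts checkpoint signalling, was at 73.4, 69.3 and 69.6 CPM with DMSO and 66.2, 60.9 and 62.4 CPM with NXP800 at 6 h. At 24 h the levels were 72.7, 71.1 and 68.3 CPM with DMSO and 36.7, 32.9 and 31.3 CPM with NXP800. Its libraries did not overlap at either time, but the log2 fold change of -0.16 at 6 h lay close to the threshold (edgeR adjusted p = 0.0473). This call was lost with DESeq2's size factors (edgeR adjusted p = 0.0784) and with DESeq2's Wald test (adjusted p = 0.0995). It was also lost in edgeR with library size only (adjusted p = 0.0629), no filter (0.125) and the libraries of 1 time point (0.0575). So it was in 9 fits that left out 1 library, whereas it passed with the replicate block, with and without offsets. The log2 fold change of -1.07 at 24 h passed (edgeR adjusted p = 2.49e-09). *BUB1B*, the gene of BUBR1, a part of the mitotic checkpoint complex, fell by 0.40 at 6 h and by 1.05 at 24 h on the log2 scale, with 10.2% of its exon length shared with *PAK6* in GENCODE. *BUB3*, which recruits BUB1 and BUBR1 to kinetochores, had the smallest change of the 60 at 24 h. It was at 268, 262 and 247 CPM with DMSO and at 216, 213 and 202 CPM with NXP800 at 24 h, a log2 fold change of -0.30 ± 0.056 (edgeR adjusted p = 0.000249), after -0.02 at 6 h (edgeR adjusted p = 0.783). The difference between its 2 responses was -0.28 (edgeR adjusted p = 0.0161) and missed the threshold with library size only (adjusted p = 0.0608) and with no filter on low counts (adjusted p = 0.0809).

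Of the 4 regulators of the APC/C 1 was lower and 1 higher at 6 h, close to the shares over all genes (27.8% and 25%). All 4 fell at 24 h (median -0.82), none over 2-fold. *CDC20*, the activator in early mitosis, was at 333, 308 and 319.7 CPM with DMSO and at 256, 227 and 259 CPM with NXP800 at 6 h. Levels at 24 h were 493, 471 and 484 CPM with DMSO and 286, 233 and 257 CPM with NXP800, so that both NXP800 groups covered like levels below different DMSO levels. The log2 fold change was -0.37 ± 0.076 at 6 h (edgeR adjusted p = 0.000606) and -0.90 ± 0.076 at 24 h (edgeR adjusted p = 5.92e-08). *UBE2C*, the E2 enzyme that works with the APC/C, was at 162, 169 and 166 CPM with DMSO and at 200.3, 175 and 199 CPM with NXP800 at 6 h. At 24 h it was at 211, 202 and 193 CPM with DMSO and at 115, 101 and 92.4 CPM with NXP800. All NXP800 libraries were thus above DMSO at 6 h (log2 0.21, edgeR adjusted p = 0.0311) and all below at 24 h (log2 -0.97, edgeR adjusted p = 3.12e-08). *FZR1*, the gene of CDH1, the activator in late mitosis and G1, fell by 0.43 on the log2 scale at 24 h, and *FBXO5*, the gene of the inhibitor EMI1, by 0.73.

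Per length of exon, *CDC20* had the highest level of the 60 in both DMSO groups, with 159 CPM per kb at 6 h and 240.0 CPM per kb at 24 h. *UBE2C* came next with 129 and 157 CPM per kb and *MYBL2* followed with 109 and 152 CPM per kb. The lowest was *CENPI* with 4.17 and 3.89 CPM per kb, and its 233 reads in 1 library were the lowest count of any member.

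In the chromosomal passenger complex, which corrects wrong attachments and then moves to the midzone, *BIRC5* (survivin) fell most. It was at 203, 194 and 192 CPM with DMSO and at 155, 135 and 149 CPM with NXP800 at 6 h. The 24 h libraries had 269, 285 and 254 CPM with DMSO and 95.6, 80.8 and 86.0 CPM with NXP800. The log2 fold change was -0.43 ± 0.073 at 6 h (edgeR adjusted p = 0.000132) and -1.62 ± 0.075 at 24 h (edgeR adjusted p = 1e-10). *INCENP*, the scaffold of the complex, was at 54.9, 49.7 and 58.0 CPM with DMSO and at 49.4, 46.1 and 50.9 CPM with NXP800 at 6 h, and the groups overlapped. With the replicate number as a block its 6 h fall passed (log2 -0.15, edgeR adjusted p = 0.015). With offsets for GC content and length added it was 0.026 and did not pass. With DMSO at 24 h the level was 75.01, 74.0 and 67.3 CPM, and with NXP800 it was 34.7, 31.6 and 30.3 CPM, with no overlap (log2 -1.16 ± 0.077, edgeR adjusted p = 3.79e-09). *CDCA8* (borealin) changed by -0.05 on the log2 scale at 6 h, which did not pass (edgeR adjusted p = 0.686), and fell by 1.08 at 24 h.

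**Figure D4:**
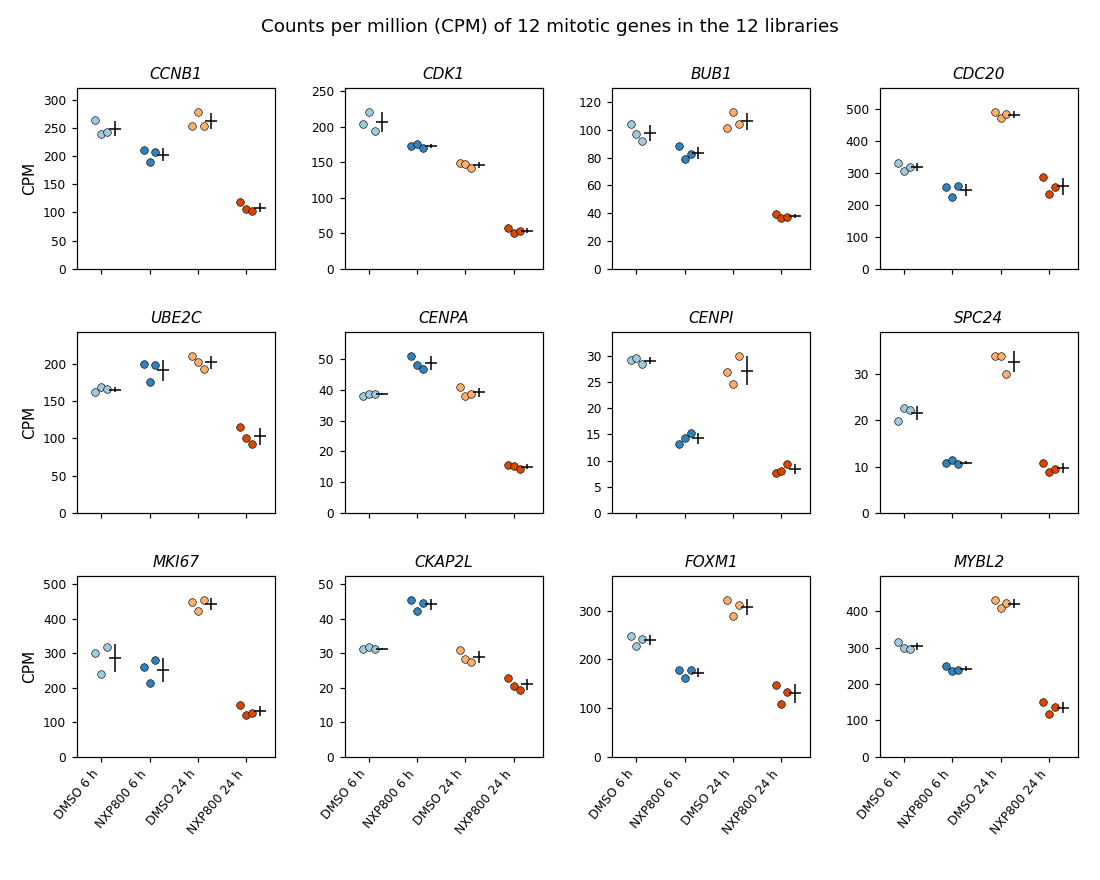
CPM of 12 members in each library (points), with the mean and SD of the 3 libraries of a group as a cross to their right, on axes that start at 0. *SPC24* and *CENPI* are already low with NXP800 at 6 h, *CENPA*, *CKAP2L* and *UBE2C* are higher with NXP800 at 6 h and lower at 24 h, and *MKI67* overlaps between the groups at 6 h and lies far apart at 24 h.

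Centromere and kinetochore genes held the 2 largest falls at 6 h and 3 of the 8 rises. Of 15 members 5 fell and 3 rose at 6 h (median -0.048), and 15 fell at 24 h (median -1.18), 9 over 2-fold. The 6 h counts are near the shares over all genes tested (27.8% lower and 25% higher). *CENPI* (chrX:101098204-101181859), a part of the inner kinetochore network on CENP-A chromatin, was at 29.2, 29.7 and 28.5 CPM with DMSO and at 13.1, 14.3 and 15.3 CPM with NXP800 at 6 h. After 24 h DMSO libraries stood at 26.9, 24.6 and 30.1 CPM and NXP800 libraries at 7.69, 8.03 and 9.41 CPM. It was the 1 member that fell over 2-fold at 6 h (log2 -1.03 ± 0.095, edgeR adjusted p = 2.13e-07), and it fell by 1.70 at 24 h (edgeR adjusted p = 1.11e-09). *SPC24*, a subunit of the NDC80 complex that holds microtubules (chr19:11145493-11155782), was at 19.96, 22.6 and 22.3 CPM with DMSO and at 10.7, 11.4 and 10.5 CPM with NXP800 at 6 h. Levels at 24 h were 34.0, 33.9 and 30.1 CPM with DMSO and 10.8, 8.75 and 9.57 CPM with NXP800. The log2 fold change was -0.99 ± 0.093 at 6 h (edgeR adjusted p = 2.59e-07) and, as the largest fall of the 60, -1.75 ± 0.094 at 24 h (edgeR adjusted p = 3.96e-10).

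The 4 subunits of the NDC80 complex did not move alike at 6 h. *SPC24* and *SPC25* fell, by 0.99 and 0.40 on the log2 scale, *NUF2* had -0.16 (edgeR adjusted p = 0.095), and *NDC80* itself rose by 0.19 (edgeR adjusted p = 0.02). At 24 h, in the order *SPC24*, *SPC25*, *NUF2*, *NDC80*, the log2 fold changes were -1.75, -1.35, -1.40 and -1.06. *CENPA*, the histone H3 variant that marks the centromere, was at 38.1, 38.7 and 38.8 CPM with DMSO and at 51.2, 48.0 and 47.0 CPM with NXP800 at 6 h. At 24 h it was at 40.9, 38.1 and 38.7 CPM with DMSO and at 15.7, 15.3 and 14.2 CPM with NXP800. The log2 fold change turned from 0.34 ± 0.065 (edgeR adjusted p = 0.000362) to -1.38 ± 0.069 (edgeR adjusted p = 2.04e-10), a difference of -1.72 that was the largest of the 60.

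*CENPU*, another gene of the inner kinetochore, was at 64.5, 63.3 and 63.8 CPM with DMSO and at 75.2, 75.3 and 70.9 CPM with NXP800 at 6 h. The 24 h libraries had 41.9, 42.8 and 42.8 CPM with DMSO and 28.4, 23.7 and 23.7 CPM with NXP800. The groups did not overlap, with NXP800 above DMSO at 6 h (log2 0.21, edgeR adjusted p = 0.0181) and below it at 24 h (log2 -0.75, edgeR adjusted p = 2.63e-07), and 14.9% of the exon length lies over *PRIMPOL* on the other strand. *ZWINT* and *CENPN*, which also serve the kinetochore, fell at both times, by 0.40 and 0.21 at 6 h and by 1.18 and 0.84 at 24 h. In GENCODE 23.1% of the exon length of *CENPN* lies in overlapping gene models, the largest overlap being on the same strand. The motor gene *CENPE*, the large coiled-coil gene *CENPF*, the microtubule receptor scaffold *KNL1*, and *CENPM*, *CENPH* and *CENPK* of the inner kinetochore had log2 fold changes between -0.08 and 0.16 at 6 h that did not pass. At 24 h they fell, in this order, with log2 fold changes of -1.33, -1.36, -0.91, -0.97, -0.53 and -0.31. The groups of *CENPK* overlapped at 24 h, when NXP800 was at 20.6, 24.3 and 20.5 CPM against 23.6, 29.7 and 27.7 CPM, and without replicate 2 of DMSO 24 h the log2 fold change was -0.24 (edgeR adjusted p = 0.0538).

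Among the genes of condensin, cohesion and chromosome structure 5 of 11 fell and 1 rose at 6 h (median -0.19), and 11 fell at 24 h (median -1.12). *MKI67*, which coats mitotic chromosomes and whose promoter is printed above, was at 300.03, 241 and 319.7 CPM with DMSO and at 261, 214 and 280.1 CPM with NXP800 at 6 h. With DMSO at 24 h the level was 449, 424 and 456 CPM, and with NXP800 it was 151, 121 and 128 CPM. The groups overlapped at 6 h (log2 -0.19 ± 0.11, edgeR adjusted p = 0.159) and lay far apart at 24 h (log2 -1.73 ± 0.11, edgeR adjusted p = 3.05e-09). Within each replicate number NXP800 lay below DMSO at 6 h. With that number as a block the 6 h fall of *MKI67* passed (log2 -0.19, edgeR adjusted p = 0.00461). *ESPL1*, the protease that cuts cohesin at anaphase, was at 47.8, 46.6 and 58.1 CPM with DMSO and at 36.97, 33.9 and 40.04 CPM with NXP800 at 6 h. After 24 h DMSO libraries stood at 74.97, 86.3 and 66.6 CPM and NXP800 libraries at 22.5, 24.7 and 23.8 CPM. It fell at both times without overlap, with log2 fold changes of -0.46 ± 0.10 (edgeR adjusted p = 0.00115) and -1.68 ± 0.10 (edgeR adjusted p = 1.75e-09).

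*SMC4*, a core subunit of condensin, was at 288, 268 and 273 CPM with DMSO and at 322, 314 and 322 CPM with NXP800 at 6 h. Levels at 24 h were 190.0, 213 and 218 CPM with DMSO and 121, 136 and 124 CPM with NXP800. It rose at 6 h (log2 0.21, edgeR adjusted p = 0.014) and fell at 24 h (log2 -0.70, edgeR adjusted p = 2.15e-07), and 22% of its exon length lies over *TRIM59* on the other strand. The other condensin subunits differed at 6 h: *NCAPH* and *NCAPD2* fell by 0.41 and 0.31, while *NCAPG* and *SMC2* had 0.01 and -0.03, which did not pass. All of them fell at 24 h, by 1.12, 1.49, 1.22 and 0.83. In GENCODE 33.7% of the exon length of *NCAPG* lies in overlapping gene models, the largest overlap being with *LCORL* on the other strand. *TOP2A*, which untangles sister DNA, had the lowest adjusted p of the 60 at 24 h and went from 434, 429.9 and 406 CPM with DMSO to 149.5, 151 and 145 CPM with NXP800 at 24 h (log2 -1.51 ± 0.058, edgeR adjusted p = 2.02e-11). *PTTG1* (securin) fell by 0.28 and 1.03 at the 2 times and *SGO2*, a protector of cohesin, by 0.20 and 1.00, while its relative *SGO1* had -0.0020 at 6 h (edgeR adjusted p = 0.983) and fell by 0.80 at 24 h.

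Of 9 spindle and cytokinesis genes 3 were lower and 3 higher at 6 h, with a median of 0.028. These counts are near the shares over all genes tested (27.8% lower and 25% higher). All 9 fell at 24 h (median -1.08). *ASPM*, a spindle pole gene, was at 121, 113 and 129.7 CPM with DMSO and at 114, 109.9 and 126 CPM with NXP800 at 6 h. At 24 h it was at 134, 133 and 121 CPM with DMSO and at 53.9, 49.7 and 43.1 CPM with NXP800. The groups overlapped at 6 h (log2 -0.06, edgeR adjusted p = 0.575) and not at 24 h (log2 -1.40 ± 0.084, edgeR adjusted p = 1.38e-09), and with the replicate block and offsets for GC content and length the 6 h value was -0.22 and passed (edgeR adjusted p = 0.000638). *DLGAP5*, which stabilizes spindle microtubules, was at 145, 129 and 127 CPM with DMSO and at 119.8, 111 and 118 CPM with NXP800 at 6 h. The 24 h libraries had 119, 122 and 115 CPM with DMSO and 50.8, 46.5 and 45.5 CPM with NXP800. It fell at both times without overlap, by 0.20 (edgeR adjusted p = 0.0161) and 1.32 (edgeR adjusted p = 2.39e-10) on the log2 scale. The call at 6 h was lost without replicate 1 of DMSO 6 h (log2 -0.14, edgeR adjusted p = 0.108) and without replicate 2 of NXP800 6 h (log2 -0.17, edgeR adjusted p = 0.076).

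The largest rise of the 60 at 6 h was that of *CKAP2L*, a gene of a spindle protein. It was at 31.1, 31.7 and 31.3 CPM with DMSO and at 45.5, 42.3 and 44.6 CPM with NXP800 at 6 h. With DMSO at 24 h the level was 30.9, 28.4 and 27.6 CPM, and with NXP800 it was 22.8, 20.6 and 19.5 CPM. All NXP800 libraries were above DMSO at 6 h (log2 0.49 ± 0.073, edgeR adjusted p = 3.07e-05) and all below at 24 h (log2 -0.47 ± 0.075, edgeR adjusted p = 6.18e-05). *HMMR*, which encodes a hyaluronan receptor that also binds the spindle, was at 86.1, 84.1 and 78.7 CPM with DMSO and at 95.3, 93.7 and 104 CPM with NXP800 at 6 h. After 24 h DMSO libraries stood at 58.4, 66.6 and 70.9 CPM and NXP800 libraries at 29.4, 28.3 and 30.3 CPM. It rose by 0.24 at 6 h (edgeR adjusted p = 0.0117) and fell by 1.16 at 24 h (edgeR adjusted p = 3.48e-09).

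*TPX2*, the activator of Aurora A on the spindle, completes the rises of this subgroup (log2 0.18 at 6 h, edgeR adjusted p = 0.0441) and fell by 1.00 at 24 h. *ANLN* (anillin) and *NUSAP1* fell at both times, by 0.38 and 0.21 at 6 h and by 1.27 and 1.00 at 24 h. *PRC1*, which bundles midzone microtubules, and *ECT2*, which triggers cleavage furrowing, had 0.07 and 0.03 at 6 h, which did not pass, and fell by 1.08 and 0.81 at 24 h. In GENCODE 86.8% of the exon length of *NUSAP1* and 61.9% of that of *PRC1* lie in overlapping gene models on the same strand, so their reads could be split.

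The 8 rises at 6 h were small, and 6 of them (*UBE2C*, *CENPU*, *NDC80*, *SMC4*, *TPX2* and *HMMR*) missed the threshold in at least 1 fit that left out a library, as did 6 of the 27 falls (*BUB1*, *TTK*, *CENPN*, *PTTG1*, *SGO2* and *DLGAP5*). Without replicate 2 of DMSO 6 h 3 members rose, and without replicate 3 of DMSO 6 h, replicate 1 of NXP800 6 h or replicate 3 of NXP800 6 h 4 rose. *CKAP2L* and *CENPA* rose in each of these fits and at an adjusted p below 0.01. With the block and further offsets for transcript length and GC content 40 members fell and 5 rose at 6 h, and *HMMR* (0.09), *SMC4* (0.08), *CENPU* (0.07) and *NDC80* (0.07) no longer passed. How many of all genes tested passed in this fit was not computed, so these counts cannot be set against a background. Falls that passed in this fit, and neither without the block nor with the block alone, were those of *PLK4* (-0.25), *FBXO5* (-0.24), *ASPM* (-0.22), *CENPH* (-0.20), *KNL1* (-0.19), *SMC2* (-0.18), *CENPK* (-0.16), *NCAPG* (-0.12) and *ECT2* (-0.11), and *FZR1* passed as a rise (0.14). Of the 6 rising members with a promoter window 5 held a CHR.

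Both transcription factors of the list fell at both times. *MYBL2*, the gene of B-MYB, was at 315, 299 and 297 CPM with DMSO and at 250.3, 237 and 239 CPM with NXP800 at 6 h. Levels at 24 h were 432, 408 and 424 CPM with DMSO and 150.0, 119 and 137 CPM with NXP800. The log2 fold change was -0.33 ± 0.073 at 6 h (edgeR adjusted p = 0.00131) and -1.64 ± 0.075 at 24 h (edgeR adjusted p = 9.28e-11). *FOXM1* was at 248, 228 and 242 CPM with DMSO and at 178, 162 and 179 CPM with NXP800 at 6 h. At 24 h it was at 323, 290.0 and 312 CPM with DMSO and at 148, 109 and 134 CPM with NXP800. It fell by 0.47 at 6 h (edgeR adjusted p = 0.000351) and by 1.24 at 24 h (edgeR adjusted p = 1.02e-08), with no overlap at either time, and 15.9% of its exon length lies over *ITFG2* on the other strand.

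Members with and without a motif match in their windows had like medians at 24 h. The median log2 fold change at 24 h was -1.18 over the 35 members with a CHR and -1.12 over the 15 without, and at 6 h it was -0.15 and -0.28. Members with both motifs had a median of -1.19 at 24 h (n = 26) and those with neither -1.23 (n = 6, among them *CENPI* with a window inside the gene). The windows of *AURKB*, counted without a CHR, and of *SGO1* and *SMC2*, counted with a CHR, also lie inside their genes. A member without a match lacks the searched letters in its window only, so some members may stand in the wrong class. Across the 60 genes the log2 fold changes of the 2 times went together in part (Pearson r = 0.501, Spearman rho = 0.468), as a description over genes that share libraries within each time.

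Other genes of these pathways were taken from lists by role. The counts of each list stand beside the shares over all genes tested. At 6 h 27.8% of these fell and 25% rose, and at 24 h 28.6% fell and 27.5% rose. Of 15 genes of the APC/C, which are its subunits and the E2 enzyme gene *UBE2S*, 6 fell and 1 rose at 6 h. At 24 h 8 fell, *UBE2S* (-0.73) among them, and 4 rose (median -0.21). *ANAPC15* was lowest at 24 h (-1.07) and *ANAPC16* highest (0.39), and *ANAPC2* (-0.61) and *ANAPC10* (0.35) were the extremes at 6 h. Of 27 other kinetochore and centromere genes 10 fell and 5 rose at 6 h, and 19 fell and 3 rose at 24 h (median -0.55). *CENPX*, of the DNA-binding CENP-S complex, fell most at both times (-0.79 and -1.24), *SKA1*, of the outer kinetochore, rose most at 6 h (0.44) and fell by 0.33 at 24 h, and *MAD1L1*, the partner of MAD2, rose by 0.61 at 24 h. Of 17 genes of condensin II and cohesin 4 fell and 6 rose at 6 h, and 9 fell and 2 rose at 24 h (median -0.23). The condensin II genes *NCAPD3* and *NCAPG2* had the largest falls, by 0.73 at 6 h and by 1.24 at 24 h, and the cohesin loader *NIPBL* and the acetyltransferase gene *ESCO1* the largest rises, by 0.44 at 6 h and by 0.39 at 24 h.

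Of 20 other regulators of mitotic entry and exit 9 fell and 3 rose at 6 h, and 17 fell and 3 rose at 24 h (median -0.85). *PBK*, a mitotic kinase gene, fell most at both times (-0.55 and -1.74), and *CCNB1IP1*, a ubiquitin ligase gene named for its binding of cyclin B1, rose most at both (1.03 and 0.92). Of 15 genes of MuvB, DREAM and the partners of B-MYB 4 fell and 4 rose at 6 h, close to the shares over all genes tested (27.8% and 25%). At 24 h 9 of them fell and 2 rose (median -0.22). *RBBP4*, a chromatin subunit of MuvB, fell by 0.81 at 6 h and *TFDP1*, the partner of E2F factors, by 0.92 at 24 h, while *LIN37*, a MuvB subunit at 4.04 CPM in DMSO at 6 h, rose by 1.23 and 1.05. Of 24 G1/S genes 19 fell and none rose at 6 h with a median of -0.50, beside a median of -0.15 for the 60 mitotic genes. At 24 h 22 of the G1/S genes fell and none rose with a median of -0.84, beside -1.12 for the 60. *GINS1*, a replication factor, fell most at 6 h (-1.04) and *TYMS*, thymidylate synthase, at 24 h (-1.87), and the smallest changes that passed were those of *CDC6* at 6 h (-0.18) and *CDC7* at 24 h (-0.20).

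**Figure D5:**
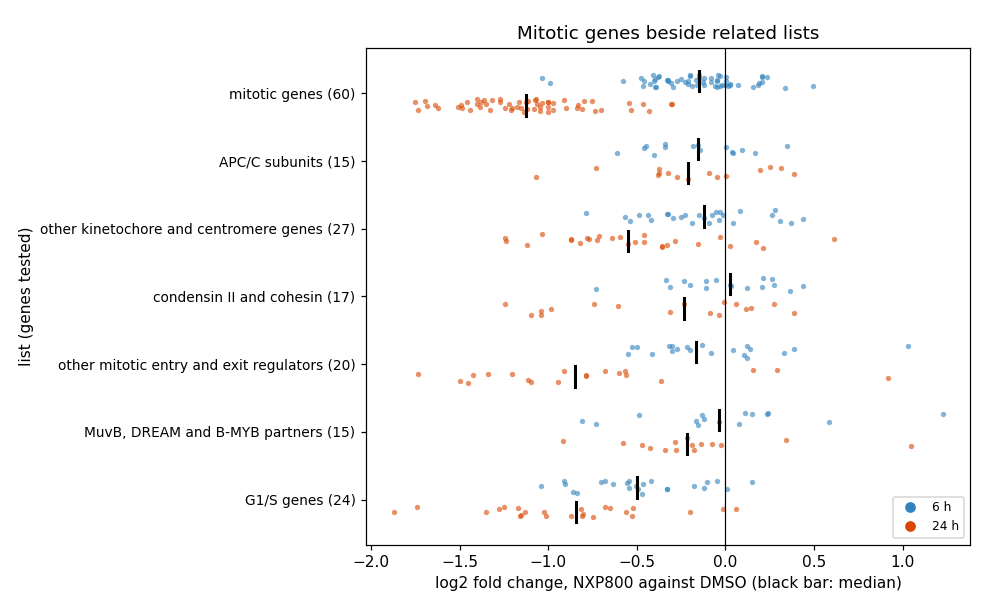
log2 fold change of NXP800 against DMSO of every gene tested in the 60 mitotic genes and 6 related lists (number of genes in parentheses) at 6 h (blue) and 24 h (orange), with the median as a black bar. The mitotic genes lie between -1.75 and -0.30 at 24 h, and the G1/S genes have the lowest median of the 7 groups at 6 h (-0.50).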

How the data were processed

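RNA-seq of 12 libraries of MNNG/HOS cells was analysed, 3 for each of DMSO and 300 nM NXP800 at 6 h and at 24 h. Groups and replicate numbers come from the sample titles. What the authors deposited are unnormalized read counts of genes, made from strand-specific polyA libraries (reads of 100 bases) with fastp 0.20.1, STAR 2.7.5a on hg38 and HTSeq 0.12.4 on RefSeq genes. The strand setting and the counting mode are not given in the sources used here, so reads of overlapping genes could be split or lost. Entries that name no gene were left out. The labels do not say whether replicates are separate cultures, and p-values then measure the spread between these libraries, which may be technical. Replicates differed by more than sampling noise (chi-square per degree of freedom of 7.36 or more).

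The tests used edgeR 4.0.16 in R 4.3.3. Its function filterByExpr kept 15979 genes, scaling was by TMM, and the quasi-likelihood test was run in 1 model of the 4 groups, with Benjamini-Hochberg adjustment over all genes tested (common dispersion 0.00723). CPM are computed with the TMM factors. At these depths the spread between replicates, not the counting error, limits the precision. The scripts were tested on simulated data. The alternatives were DESeq2's size factors and Wald test (DESeq2 1.42.0), library size only, no filter, at least 10 counts in every library, the libraries of 1 time point, an adjusted p below 0.01, each library left out, and the replicate number as a block, with and without offsets for GC content and length (known for 91.6% of the genes tested).

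The replicate numbers pair the libraries: deviations from the group means correlated at 0.159 to 0.329 between DMSO and NXP800 libraries of the same number and at most at 0.0580 between different numbers. Gene positions and promoter windows are from RefSeq on GRCh38.p14, and exon lengths and overlaps, on either strand, from GENCODE on the same assembly, whose models can differ from those counted. Overlap is printed for some members only, and others overlap too.

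The members and the lists were chosen with earlier results of these data known. Values of every library are given for *CCNB1*, *CDK1* and *MKI67*, for the 2 members of each subgroup with the largest change at 24 h and the 1 with the largest at 6 h, and for the 6 largest rises. *BUB3*, *CENPK* and *TOP2A* were added, with some of their libraries, after their values were seen. Promoters were printed for the 3 largest falls at 24 h with a CHR and for the smallest change. Some marker genes are not reported here.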

Additional observations from a re-analysis of the deposited data

Results flagged for a closer look

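The response to NXP800 was more negative at 24 h than at 6 h for 58 of the 60 members (edgeR's test of the difference, adjusted p below 0.05). Over all genes tested the share was 13.8%. The 23 members below are those of the 58 chosen for printing, most of them for large changes at 24 h or 6 h, so their differences are not typical by design. Each value below is the log2 response at 24 h minus that at 6 h and rests on all 4 groups, including the DMSO libraries used for the single responses. The 2 times also differ in library set, so that time and library set cannot be told apart. For the 6 members that rose at 6 h and fell at 24 h it was -1.72 for *CENPA*, -1.39 for *HMMR*, -1.18 for *UBE2C*, -0.96 for *CENPU*, -0.96 for *CKAP2L* and -0.91 for *SMC4*. Among members with little change at 6 h and a large fall at 24 h it was -1.54 for *MKI67*, -1.34 for *ASPM* and -1.01 for *INCENP*. Of the cyclins and their kinase it was -1.19 for *CDK1*, -0.98 for *CCNB1* and -0.88 for *CCNA2*. In the checkpoint it was -1.26 for *BUB1*, -0.91 for *TTK* and -0.57 for *MAD2L1*. For the activator *CDC20* it was -0.53, for *BIRC5* -1.20, for *ESPL1* -1.22 and for *DLGAP5* -1.12. The transcription factors had -1.31 for *MYBL2* and -0.78 for *FOXM1*. The members already low at 6 h had -0.76 for *SPC24* and -0.66 for *CENPI*.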

How the results depend on the processing

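The fall at 24 h kept its direction and its side of the threshold for 59 of the 60 members under every alternative, and *CENPK* missed it with library size only and without replicate 2 of DMSO 24 h. Direction and side of the threshold were both kept by 57 of the 60 for the difference between the times and by 25 at 6 h. Members whose sign at 6 h reversed without passing are not counted among these 25. Leaving out 1 library gave 22 to 27 members lower and 3 to 8 higher at 6 h, 59 to 60 lower at 24 h, 9 to 18 lower in DMSO at 24 h than at 6 h, a median at 6 h from -0.17 to -0.11 and a median at 24 h from -1.16 to -1.07. At an adjusted p below 0.01, 2 members rose at 6 h and 10 were lower in DMSO at 24 h than at 6 h. With library size only the last count was 29 and the median at 24 h was -1.03, where the median of all genes moved to 0.086. With the libraries of 1 time point the median at 6 h was -0.12. With the replicate block and offsets for GC content and length 5 members rose at 6 h and the median was -0.20. The replicate block alone, given the pairing, had 32 members lower and 9 higher at 6 h, moved the calls named in the report, and changed no other call of a member. Shares of all genes that passed were not computed for the alternative fits, so their counts of members cannot be set against a background. With the block and offsets 4 log2 fold changes at 6 h reversed and passed the threshold in the new direction, to 0.14 for *FZR1* (edgeR adjusted p = 0.0396), -0.16 for *CENPK* (0.0124), -0.12 for *NCAPG* (0.0335) and -0.11 for *ECT2* (0.0399). Others reversed without passing, to 0.014 for *AURKB*, 0.026 for *INCENP*, -0.020 for *CENPE*, -0.096 for *CENPF* and 0.11 for *CENPM*. The falls of *PLK4*, *FBXO5*, *ASPM*, *CENPH*, *KNL1* and *SMC2* at 6 h passed in this fit (-0.25 to -0.18). With the libraries of 1 time point *BUB3* was at 0.012 and *SGO1* at 0.030, and *SGO1* was at 0.014 with DESeq2's size factors, 0.015 with library size only and 0.015 with DESeq2's Wald test. When 1 library was left out the signs at 6 h also reversed for *BUB3* (-0.036 to 0.011), *CDC25C* (-0.019 to 0.073), *CDCA8* (-0.11 to 0.052), *CENPF* (-0.044 to 0.087), *CENPK* (-0.030 to 0.052), *CENPM* (-0.12 to 0.019), *ECT2* (-0.019 to 0.066), *KNL1* (-0.080 to 0.0060), *NCAPG* (-0.014 to 0.036), *SGO1* (-0.024 to 0.029) and *SMC2* (-0.061 to 0.0027). The causes were not tested. No blocked fit was possible for DMSO at 24 h against 6 h, because a number pairs libraries within a time point.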
